A study of Mus musculus with 18 samples.

Results

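The genes examined here are the mouse splicing factor genes of the hnRNP, SR, PTB and RBFOX families, taken as every gene whose symbol starts with Hnrnp, Srsf, Ptbp or Rbfox, with 2 symbols ending in -ps left out as pseudogenes. They number 37 of the 46603 genes counted: 20 Hnrnp, 11 Srsf, 3 Ptbp and 3 Rbfox genes. The table gives reads per gene for 18 libraries of RNA from sorted testis germ cells. The mice were adult males of strain C57BL/6 and carried the Stracre and GAG-tdTomato transgenes in every group, a Cre recombinase and a red fluorescent reporter. The 6 groups hold 3 libraries each. Undiff.Spg and Diff.Spg are read here as spermatogonia before and after the start of differentiation. PreL, LZ and PD are read as spermatocytes of meiotic prophase (preleptotene, leptotene to zygotene, and pachytene to diplotene), and RS as round spermatids, the haploid cells that follow. These readings are the common use of the abbreviations, which the labels leave unexplained. Each comparison sets a later group against an earlier one. No label ties a library to an animal, so the p-values measure the spread between these libraries, which may be technical.

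Splicing factors of these families bind pre-mRNA and steer which exons are kept. SR proteins carry domains rich in arginine and serine, mostly favour the use of the exons they bind, and are controlled by phosphorylation through the SRPK and CLK kinases. The hnRNP proteins coat nascent transcripts and often repress exons. PTB proteins, themselves hnRNPs, bind pyrimidine-rich RNA and block many exons, and RBFOX proteins act from introns on either side of an exon. In the nervous system PTBP1 of progenitor cells gives way to its paralog PTBP2 in young neurons, and in the mouse testis PTBP2 is known to be needed for spermatogenesis.

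Promoters are shown for 2 pairs of paralogs whose levels are described below, Ptbp1 with Ptbp2 and Hnrnph1 with the X-linked Hnrnph2. Each sequence runs 5′ to 3′ on the gene's strand, from 250 bases before to 50 bases after a RefSeq transcription start on GRCm38.p6, and the capitals mark matches, on either strand, to CCAAT (the CCAAT box), GGGCGG (the SP1 GC box) or AACNGNC (the MYB site). Ptbp1 is at chr10:79854182-79854481 on the plus strand, Ptbp2 at chr3:119783339-119783638 on the minus strand, Hnrnph1 at chr11:50376740-50377039 on the plus strand (the first of 5 listed starts), and Hnrnph2 at chrX:134600929-134601228 on the plus strand.
Ptbp1: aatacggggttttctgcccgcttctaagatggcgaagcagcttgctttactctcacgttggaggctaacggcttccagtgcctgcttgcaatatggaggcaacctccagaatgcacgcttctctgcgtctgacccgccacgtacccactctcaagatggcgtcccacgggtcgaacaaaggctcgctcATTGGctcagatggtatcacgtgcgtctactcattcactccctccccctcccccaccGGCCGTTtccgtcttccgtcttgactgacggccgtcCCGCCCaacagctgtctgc
Ptbp2: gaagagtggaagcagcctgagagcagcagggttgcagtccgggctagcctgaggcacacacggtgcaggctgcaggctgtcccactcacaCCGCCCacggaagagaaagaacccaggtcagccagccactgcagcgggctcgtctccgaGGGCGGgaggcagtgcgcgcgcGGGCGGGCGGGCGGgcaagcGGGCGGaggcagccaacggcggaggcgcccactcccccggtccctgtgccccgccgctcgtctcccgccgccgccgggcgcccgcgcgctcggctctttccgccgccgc
Hnrnph1: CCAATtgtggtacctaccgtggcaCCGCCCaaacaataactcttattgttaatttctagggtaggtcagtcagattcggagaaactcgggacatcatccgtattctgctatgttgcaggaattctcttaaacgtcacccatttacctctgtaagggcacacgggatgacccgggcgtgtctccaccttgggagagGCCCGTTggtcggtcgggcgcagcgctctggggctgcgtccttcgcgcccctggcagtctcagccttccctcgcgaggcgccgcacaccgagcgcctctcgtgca
Hnrnph2: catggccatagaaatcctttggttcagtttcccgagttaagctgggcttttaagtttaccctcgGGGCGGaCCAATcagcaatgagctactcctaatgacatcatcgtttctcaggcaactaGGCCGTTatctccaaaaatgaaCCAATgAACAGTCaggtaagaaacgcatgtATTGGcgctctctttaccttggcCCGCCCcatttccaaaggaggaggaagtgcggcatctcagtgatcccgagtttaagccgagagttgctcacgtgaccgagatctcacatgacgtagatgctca
The Ptbp2 window had 6 GC boxes, 3 of them overlapping in a single run, and a GC content of 74.7%, with no CCAAT box and no MYB site. The Ptbp1 window had 1 match to each of the 3 motifs at 58.3% GC. Hnrnph1 likewise had 1 match to each, at 58% GC. The window of Hnrnph2 had 3 CCAAT boxes, 2 GC boxes and 2 MYB sites at 49% GC. RefSeq promoters matched 33 of the 37 genes (Hnrnpll, Hnrnpul2, Ptbp3 and Rbfox2 were not matched). Their median GC content was 65%, against 52.7% over all 27025 promoters, and their median number of CpG pairs was 28, against 7. GC boxes were in 25 of the 33 (35.9% of all promoters), MYB sites in 19 (32.8% of all), CCAAT boxes in 18 (37.9% of all) and the ETS core CCGGAAG in 6 (9.12% of all). The NRF1 core GCGCATGC was in 1 (2.80% of all), and the cAMP response element TGACGTCA in 0 of the 33 (1.88% of all). A match is a string of letters in this window and not a shown binding site.

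The libraries held 11777947 to 16607462 counts each, and correlated at 0.961 to 0.993 within groups on log2 CPM. Of the marker lists used to check the labels, the 4 genes of undifferentiated spermatogonia (Gfra1, Zbtb16, Ret and Etv5) summed to 1446 to 1601 CPM (counts scaled by the library total after TMM adjustment) in Undiff.Spg and to at most 156 CPM in any other library. Those for leptotene and zygotene, for pachytene and diplotene, and for round spermatids were each highest in LZ, PD and RS. The lists for differentiating spermatogonia and preleptotene did not peak in the groups so labelled. Dmrtb1, of the first list, reached 1627 to 1864 CPM in PD and RS, and the second list (Stra8, Rec8 and Meioc) summed to 1810 to 2062 CPM in LZ and 681 to 777 CPM in PreL, although Kit alone was highest in Diff.Spg at 532 to 647 CPM. Markers of testis cells outside the germ line were low, at most 22.2 CPM summed over 5 Sertoli genes and 20.1 CPM over 2 endothelial genes, both in Undiff.Spg, 7.97 CPM over 4 Leydig genes, 6.07 CPM over 3 macrophage genes and 2.20 CPM over 2 peritubular genes. Some libraries stand apart from the rest of their group in the later marker Piwil1, which was 38.1 CPM in PreL 2, against 8.24 and 14.6 CPM in PreL 1 and 3, and 36.6 CPM in LZ 2, against 8.59 and 4.48 CPM in LZ 1 and 3. It was 183 CPM in RS 3, against 77.4 and 84.7 CPM in RS 1 and 2. LZ 1 stands apart in the spermatid gene Prm2, at 32.1 CPM against 3.03 and 3.82 CPM in LZ 2 and 3, and in Prm1, at 22.7 CPM against 4.23 and 2.72 CPM.

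The splicing factor genes together stood highest in PreL by their share of counts, or in LZ by summed CPM on TMM-adjusted totals, and lowest in RS on both scales. Their share averaged 0.817% of all counts in Undiff.Spg, 0.963% in Diff.Spg, 1.01% in PreL, 0.907% in LZ, 0.494% in PD and 0.201% in RS, with SDs of 0.0154 to 0.0406 percentage points (n = 3 each). Their summed level was 6860 CPM in Undiff.Spg, 7799 in Diff.Spg, 8418 in PreL, 8694 in LZ, 6255 in PD and 2953 in RS, so the drop at RS is smaller on this scale. By share, every PD library (0.457% to 0.523%) lay below every library of the 4 earlier groups (0.790% to 1.04%), and every RS library (0.189% to 0.219%) below every PD library. Within a sorted population a lower share can come from fewer cells that hold a transcript, from less of it per cell, or from more of other transcripts. Bulk counts cannot tell these apart. The Hnrnp genes took 0.522%, 0.617%, 0.646%, 0.569%, 0.357% and 0.149% in that order. PD lay below Undiff.Spg by this share but not by summed CPM, where PD averaged 4513 ± 332 CPM and Undiff.Spg 4381 ± 158 CPM (SD, n = 3 each), and the highest mean was 5458 CPM in LZ. The Srsf genes stood at 0.181%, 0.25%, 0.289% and 0.289% up to LZ and at 0.0936% and 0.0259% in PD and RS. Ptbp genes had their largest share in Undiff.Spg (0.0967%) and took 0.0397% in LZ and 0.0433% in PD, which on the scale of summed CPM were 380 CPM in LZ and 547 CPM in PD. Rbfox genes also began highest, at 0.0176% in Undiff.Spg, and ended at 0.000813% in RS.

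**Figure D1:**
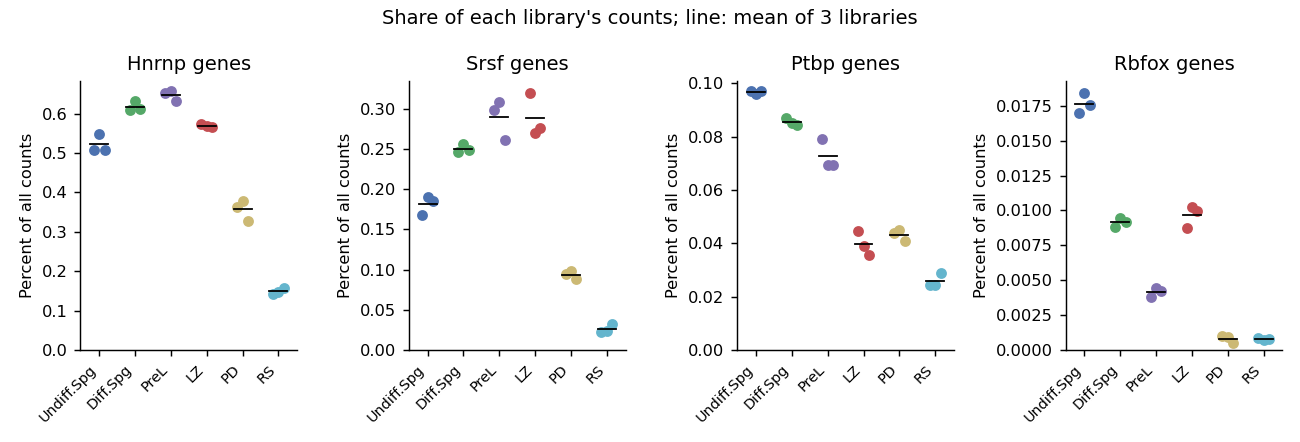
Percent of each library's counts (vertical axis, from 0, own scale per panel) taken by the Hnrnp, Srsf, Ptbp and Rbfox genes, in the 6 groups in stage order; points are libraries and the line is the mean of 3. Srsf genes take 0.289% in PreL and LZ, and 0.0936% in PD and 0.0259% in RS, with no overlap between those 3 levels.

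By their means over the 6 groups, 8 of the 37 genes were highest in Undiff.Spg, 6 in Diff.Spg, 6 in PreL, 9 in LZ, 8 in PD and 0 in RS. RS was the lowest group for 22 of them. The 3 libraries of the highest group all lay above every other library for 5 of the genes highest in Undiff.Spg, 4 in Diff.Spg, 1 in PreL, 5 in LZ and 4 in PD. The matching counts over all genes were not taken, so these counts describe the 37 genes and show nothing particular to them. Among the 36 genes tested, the highest group mean was a median of 7.14 times the lowest, and the ratio ran from 1.40 for Hnrnpu, a large nuclear scaffold hnRNP, to 44.7 for Hnrnph2. Rbfox1 did not pass the filter on low counts, with 18 reads over the 18 libraries. All 36 tested genes differed among the groups by edgeR's quasi-likelihood F test, as did 99% of all 18547 genes tested, so that count says nothing particular about them.

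**Figure D2:**
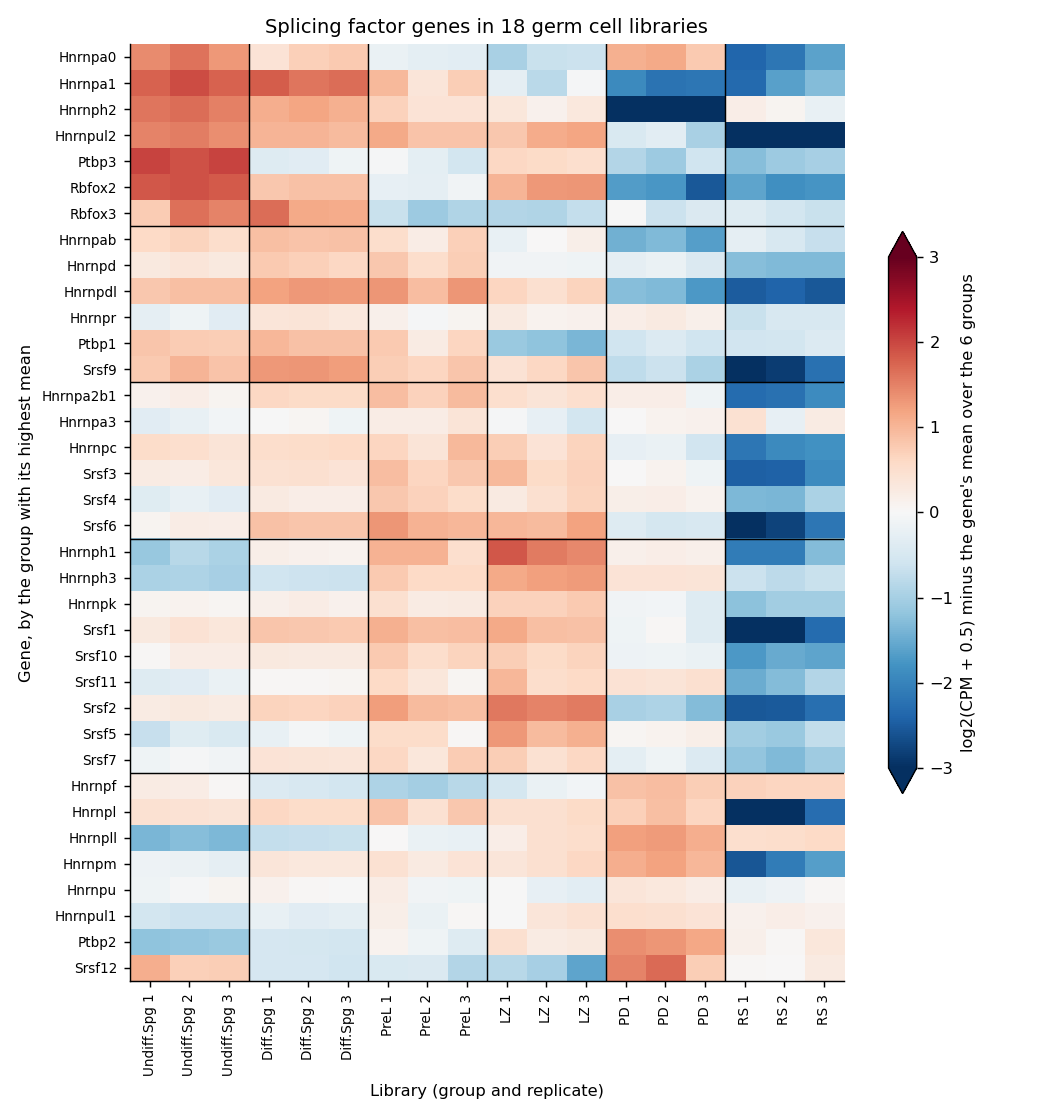
Levels of the 36 tested genes (rows, ordered by the group with the highest mean) in the 18 libraries (columns, in stage order); colour is log2(CPM + 0.5) minus the gene's mean over the 6 groups, red above and blue below, with values beyond 3 drawn at the limit. RS has the lowest mean in 22 rows, and Hnrnph2 is lowest in the 3 PD columns.

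A gene was called in a comparison at an edgeR adjusted p under 0.05 over all 18547 genes, with no condition on the fold. In Diff.Spg against Undiff.Spg 14 of the 36 genes were called higher (20.4% of all genes) and 6 lower (23% of all). In PreL against Diff.Spg 9 were called higher (20.4% of all) and 10 lower (24.8% of all). In LZ against PreL 10 were called higher (24.3% of all) and 8 lower (23.2% of all), or 7 and 12 when libraries were scaled by their totals alone (over all genes 4516 and 4302, or 3594 and 5401 so scaled). The balance then turned to falls. In PD against LZ 8 genes were called higher (42.1% of all) and 21 lower (40.8% of all), and in RS against PD 2 were called higher (30.3% of all) and 27 lower (28.6% of all). The median log2 fold change of the 36 genes was 0.29, 0.14, 0.01, -0.79 and -1.09 over the 5 steps, with the median of all genes at 0.00 to 0.02. Over the whole course, RS against Undiff.Spg, 6 genes were called higher (42.2% of all) and 29 lower (46.5% of all), or 2 and 32 with scaling by totals, and the median was -1.61, against -0.26 over all genes. Scaling by totals moved the median of all genes by -0.20 in LZ against PreL, -0.35 in PD against LZ, -0.14 in RS against PD and -0.80 in RS against Undiff.Spg, and RLE scaling moved it by 0.14 and 0.19 in the last 2 of these. Without LZ 3 or any 1 PD or RS library, the median of all genes in RS against Undiff.Spg was -0.68 to -0.57. Rises of at least 2-fold numbered 1 in Diff.Spg against Undiff.Spg (9.51% of all genes), 1 in PreL against Diff.Spg (9.2%), 1 in LZ against PreL (14.6%), 3 in PD against LZ (36.8%) and 2 in RS against PD (24.5%). Falls of at least 2-fold numbered 3 (14.8% of all genes), 3 (16.5%), 2 (13.1%), 13 (35%) and 21 (19.7%) in the same order, and RS against Undiff.Spg had 2 such rises (37.3%) and 23 such falls (41.9%). Without PreL 2 and LZ 2 together, 12 genes were called higher and 7 lower in PreL against Diff.Spg, and 11 and 8 in LZ against PreL. Without Diff.Spg 2, only 6 were called lower in PreL against Diff.Spg. Of the 6 rises in RS against Undiff.Spg, 3 (Hnrnpll, Ptbp2 and Hnrnpul1) were called without LZ 3 and without any 1 of the PD or RS libraries, where Hnrnph3 turned to -0.10 to -0.02 on the log2 scale.

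**Figure D3:**
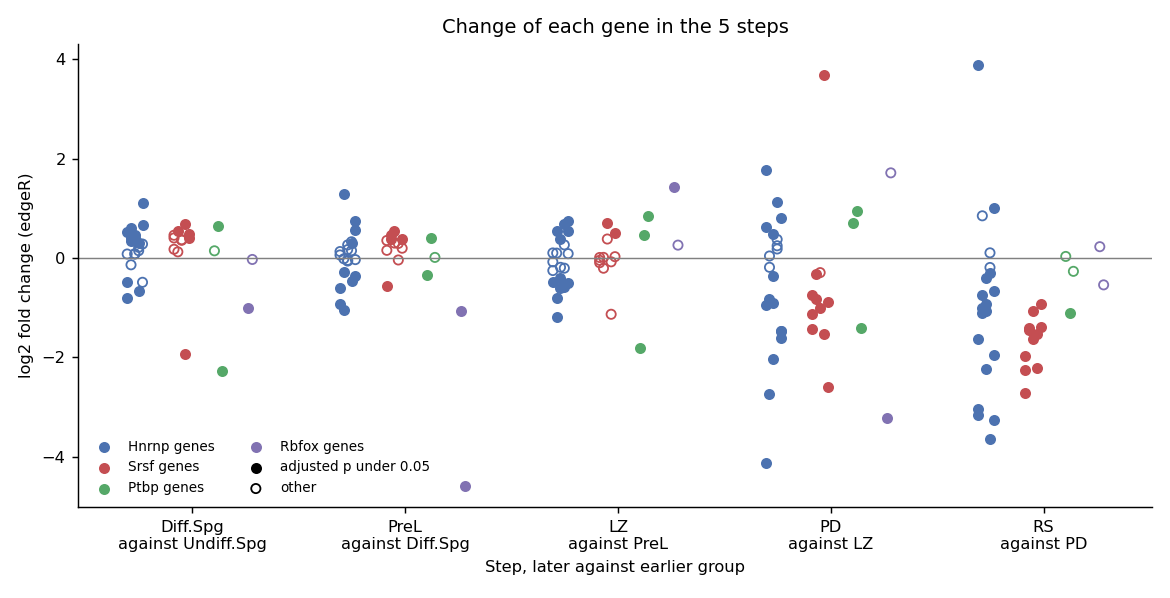
Log2 fold change (vertical axis) of each tested gene in the 5 steps, later group against earlier group, by family; filled points have an edgeR adjusted p under 0.05. All 11 Srsf genes lie below 0 in RS against PD, where the only filled points above 0 are Hnrnph2 and Hnrnpab.

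In RS against Undiff.Spg, Ptbp1 was called lower and Ptbp2 higher, and they moved in opposite directions in LZ against PreL, while both rose in PD against LZ. Ptbp1, the general repressor of the pair (chr10:79854427-79864771, plus strand), stood at 518, 496 and 489 CPM in Undiff.Spg, 583, 537 and 541 CPM in Diff.Spg, and 506, 346 and 460 CPM in PreL. It then stood at 135, 127 and 113 CPM in LZ, 194, 219 and 194 CPM in PD, and 198, 201 and 221 CPM in RS. The 9 libraries up to PreL thus all lay above the 9 later ones, with the lowest values in LZ. Ptbp1 fell in LZ against PreL by 1.81 ± 0.13 (SE) on the log2 scale, to a mean of 125 CPM against 438 CPM (edgeR adjusted p = 2.45e-08), and rose in PD against LZ by 0.70 ± 0.13 (edgeR adjusted p = 7.84e-05). Its log2 fold change in PreL against Diff.Spg was -0.34 ± 0.13 (edgeR adjusted p = 0.0364), a call lost without PreL 2 (-0.20, edgeR adjusted p = 0.186) and without any 1 of the 3 Diff.Spg libraries (edgeR adjusted p 0.0623 to 0.109). In RS against PD the log2 fold change was 0.03 ± 0.13 (edgeR adjusted p = 0.875). Exons of Ptbp1 overlap those of other genes on the opposite strand over 983 of 4740 bases. Of these, Plppr3 averaged 52.1 CPM in Diff.Spg and 4.30 CPM in LZ, and E130317F20Rik averaged 37.5 CPM in PD and 7.53 CPM in LZ. The strand setting of the counts is not given in the sources used here, and the part of these genes in the counts of Ptbp1 was not tested.

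Ptbp2, the paralog best known from neurons (chr3:119718742-119784466, minus strand), stood at 54.2, 56.4 and 58.2 CPM in Undiff.Spg, 89.1, 88.1 and 86.2 CPM in Diff.Spg, and 137, 115 and 97.0 CPM in PreL. It stood at 178, 150 and 154 CPM in LZ, 331, 317 and 281 CPM in PD, and 141, 130 and 159 CPM in RS. Each group up to PD lay wholly above the one before it, and RS wholly below PD. Ptbp2 rose in Diff.Spg against Undiff.Spg by 0.64 ± 0.13 on the log2 scale (edgeR adjusted p = 0.000592), in PreL against Diff.Spg by 0.41 ± 0.13 (edgeR adjusted p = 0.0156), in LZ against PreL by 0.47 ± 0.13 (edgeR adjusted p = 0.00575) and in PD against LZ by 0.95 ± 0.13 (edgeR adjusted p = 2.85e-06). It fell in RS against PD by 1.11 ± 0.13 (edgeR adjusted p = 1.19e-06), to a mean of 144 CPM against 310 CPM. The call in PreL against Diff.Spg was lost without PreL 1 (0.28, edgeR adjusted p = 0.0895) or Diff.Spg 3, and that in LZ against PreL with scaling by totals (0.26, edgeR adjusted p = 0.124). RS remained above Undiff.Spg by 1.35 ± 0.13 (edgeR adjusted p = 3.04e-08).

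Per kilobase of merged exons, which allows levels of different genes to be set side by side, the ratio of Ptbp2 to Ptbp1 averaged 0.0581 in Undiff.Spg, 0.0820 in Diff.Spg, 0.140 in PreL, 0.665 in LZ, 0.793 in PD and 0.359 in RS. The ratio was at most 0.172 in every library up to PreL and at least 0.336 in every later one. It stayed below 1 in all 18 libraries with these lengths, which are 9175 bases for Ptbp2 and 4740 for Ptbp1. The longest transcripts have 4047 and 3169 bases, and on those lengths the ratio would be higher. The order of Ptbp1 and Ptbp2 in LZ and PD therefore depends on the length used. An exact permutation test of 3 libraries against 3 cannot go below p = 0.1, so the ratios of paralogs are given as values with no test.

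Ptbp3, the third PTB gene and the one best known from blood cells (chr4:59471868-59549364, minus strand), had a course of its own. Its levels were 264, 241 and 261 CPM in Undiff.Spg, against 48.7 to 58.2 CPM in Diff.Spg, 43.3 to 62.7 CPM in PreL, 90.2 to 98.2 CPM in LZ, 29.9 to 41.9 CPM in PD and 26.3 to 31.8 CPM in RS. The Undiff.Spg libraries were far above the rest and LZ formed a second, smaller high. Ptbp3 fell by 2.28 ± 0.15 on the log2 scale in Diff.Spg against Undiff.Spg (edgeR adjusted p = 6.77e-09), the largest fall of that step among these genes. It rose by 0.84 ± 0.15 in LZ against PreL (edgeR adjusted p = 0.000129) and fell by 1.42 ± 0.15 in PD against LZ (edgeR adjusted p = 1.28e-07). The other 2 steps were not called, although RS against PD (-0.27 ± 0.15, edgeR adjusted p = 0.132) was called lower without PD 2 (-0.44, edgeR adjusted p = 0.0222), without RS 3 (-0.40, edgeR adjusted p = 0.0448) and with scaling by totals (-0.48, edgeR adjusted p = 0.0113).

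**Figure D4:**
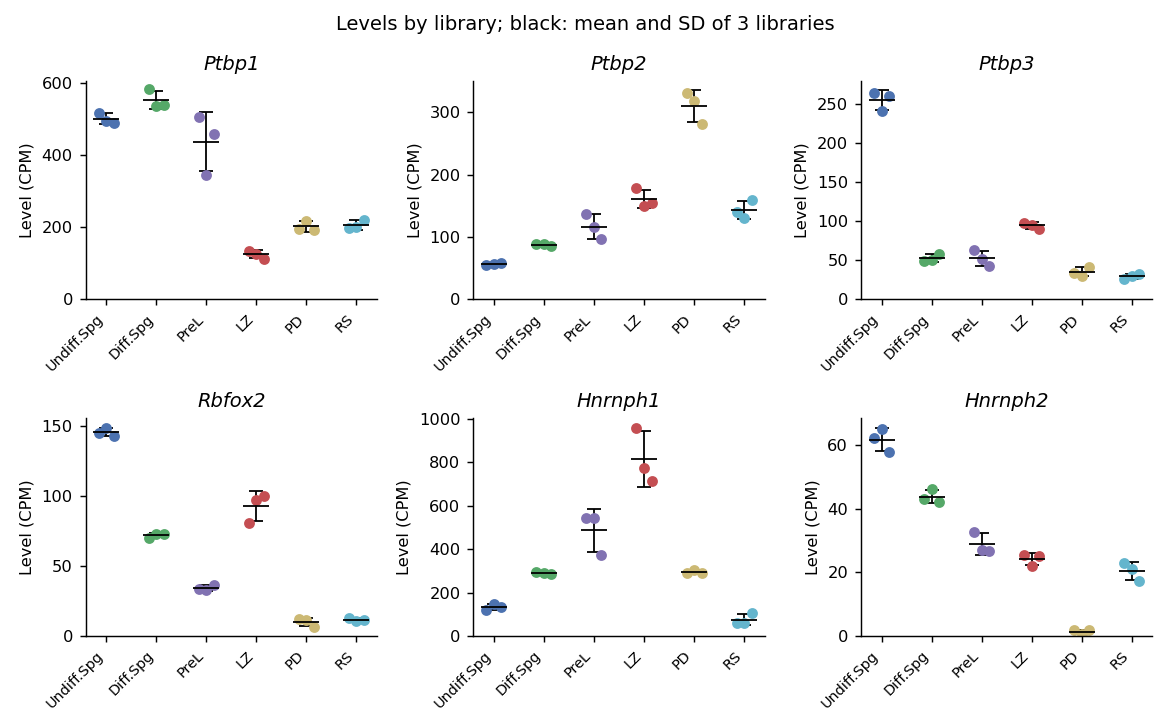
Level in CPM (vertical axis, from 0) of Ptbp1, Ptbp2, Ptbp3, Rbfox2, Hnrnph1 and Hnrnph2 in the 18 libraries by group in stage order; coloured points are libraries, black lines the mean and SD of 3. Ptbp1 averages 125 CPM in LZ and 438 CPM in PreL, Ptbp2 peaks at 310 CPM in PD, and Hnrnph2 averages 1.38 CPM in PD.

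Of the RBFOX genes only Rbfox2, the most widely expressed of the family, had more than a few CPM. Rbfox2 (chr15:77078990-77307004, minus strand) stood at 145, 149 and 143 CPM in Undiff.Spg, 70.2, 72.8 and 72.8 CPM in Diff.Spg, 33.4, 32.8 and 36.7 CPM in PreL, and 80.5, 97.5 and 100 CPM in LZ. It was 12, 11.4 and 6.35 CPM in PD and 12.9, 10.7 and 11.2 CPM in RS. Its level thus fell in 2 steps, rose in LZ, and was near the bottom in PD and RS, which overlapped. The log2 fold changes were -1.02 ± 0.16 in Diff.Spg against Undiff.Spg (edgeR adjusted p = 8.73e-05), -1.07 ± 0.17 in PreL against Diff.Spg (edgeR adjusted p = 6.73e-05), 1.43 ± 0.17 in LZ against PreL (edgeR adjusted p = 2.61e-06) and -3.22 ± 0.18 in PD against LZ (edgeR adjusted p = 4.96e-11).

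Rbfox3, whose product NeuN marks neurons, was at 1.30 to 2.88 CPM in the 6 spermatogonial libraries and at 0.549 CPM or less in the 12 others, with no read in PreL 2. It fell in PreL against Diff.Spg by 4.6 ± 0.56 on the log2 scale (edgeR adjusted p = 5.51e-06), a value that moved to -5.74 without PreL 1. The neuronal genes Snap25 and Syt1 were low throughout, and the 3 genes together summed to at most 7.51 CPM in any library. Rbfox1, expressed in brain and muscle, did not exceed 0.269 CPM.

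Among the hnRNP H genes, which encode closely related proteins that bind runs of G in RNA, Hnrnph1 and Hnrnph2 parted in their levels. Hnrnph1 (chr11:50376990-50386528, plus strand) stood at 119, 146 and 135 CPM in Undiff.Spg, 294, 288 and 283 CPM in Diff.Spg, and 542, 544 and 372 CPM in PreL. It reached 959, 772 and 712 CPM in LZ and stood at 291, 303 and 292 CPM in PD and 60.8, 60.8 and 106 CPM in RS. Each group up to LZ lay wholly above the one before it, and PD and RS each wholly below. Hnrnph1 rose by 1.11 ± 0.20 on the log2 scale in Diff.Spg against Undiff.Spg (edgeR adjusted p = 0.000205), by 0.75 ± 0.19 in PreL against Diff.Spg (edgeR adjusted p = 0.00489) and by 0.74 ± 0.19 in LZ against PreL (edgeR adjusted p = 0.00429). With scaling by totals the last of these was 0.53 (edgeR adjusted p = 0.055), and without LZ 1, the highest LZ library for Hnrnph1, it was 0.61 (edgeR adjusted p = 0.0246). It fell in the last 2 steps, with log2 fold changes of -1.46 ± 0.20 in PD against LZ (edgeR adjusted p = 3.02e-06) and -1.96 ± 0.20 in RS against PD (edgeR adjusted p = 3.14e-07, and -2.34 without RS 3).

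Hnrnph2 is the only one of the 37 genes on a sex chromosome (chrX:134601179-134607060, plus strand). It stood at 62.0, 65.1 and 57.7 CPM in Undiff.Spg, 43.2, 46.1 and 42.1 CPM in Diff.Spg, 32.7, 26.9 and 26.8 CPM in PreL, and 25.4, 22.1 and 25 CPM in LZ. In PD it was 1.74, 0.637 and 1.76 CPM, and in RS 22.9, 21.2 and 17.2 CPM. PD stood apart, below every other library. The fall in PD against LZ was 4.13 ± 0.23 on the log2 scale (edgeR adjusted p = 4.43e-11) and the rise in RS against PD was 3.89 ± 0.23 (edgeR adjusted p = 8.25e-10), the largest change in each of these 2 steps among the genes examined here. The earlier falls were smaller, at -0.49 ± 0.17 in Diff.Spg against Undiff.Spg (edgeR adjusted p = 0.0271, lost under scaling by totals and without any 1 of 5 of the 6 libraries compared, at 0.0526 to 0.0881) and -0.60 ± 0.17 in PreL against Diff.Spg (edgeR adjusted p = 0.00906).

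The X chromosome as a whole is known to be silenced in pachytene spermatocytes, and Hnrnph2 was set beside other X-linked genes. Its level in PD 1, 2 and 3 was 8.51%, 3.12% and 8.61% of its RS mean. The 119 other X-linked genes with at least 20 CPM in RS had medians of 9.59%, 6.56% and 8.43% in the same libraries, and the 6491 autosomal genes medians of 86.8% to 90%. Set against LZ, Hnrnph2 kept 7.20%, 2.64% and 7.28% of its level. The 213 other X-linked genes with at least 20 CPM in LZ kept medians of 0.542%, 0.304% and 0.372%, and 186 to 202 of them kept less than Hnrnph2. The 6635 autosomal genes at that level in LZ kept medians of 55.3% to 61.4%. Each set was chosen by its level in the group that PD is divided by, which favours low percentages. The 119 and 213 genes were chosen separately. Transcripts of Hnrnph2 share 18.2% of their 50-base windows with 2 other genes, and reads from these could be counted for it.

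Per kilobase, Hnrnph1 was 1.62 times Hnrnph2 in Undiff.Spg, 4.94 times in Diff.Spg, 12.6 times in PreL, 25.2 times in LZ and 202 times in PD, and then 2.91 times in RS. PD 2, where Hnrnph2 was lowest, had the highest ratio of 355, and the other PD libraries had 124 and 125. Hnrnph3, the shortest protein of the group, followed Hnrnph1 up to LZ, at 42.4 ± 1.26 CPM in Undiff.Spg, 53.8 ± 0.98 in Diff.Spg, 132 ± 10.1 in PreL, 193 ± 10.3 in LZ, 110 ± 1.37 in PD and 50.8 ± 2.51 in RS (SD, n = 3 each). Its rise in PreL against Diff.Spg, 1.29 ± 0.09 on the log2 scale (edgeR adjusted p = 2.13e-08), was the largest rise of that step among these genes. Hnrnpf, which binds the same runs of G, had its low in PreL (16.2 to 18.5 CPM) and its high in PD (56.0 to 64.1 CPM). It fell in Diff.Spg against Undiff.Spg by 0.66 ± 0.12 (edgeR adjusted p = 0.000316) and rose in PD against LZ by 1.13 ± 0.12 (edgeR adjusted p = 2.24e-07). Of its 50-base windows 67.3% occur in other genes, and the opposite-strand gene 4933440N22Rik averaged 29.4 CPM in PD and 9.36 CPM in LZ, so the level of Hnrnpf is uncertain.

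Hnrnpl and Hnrnpll, which bind CA-rich RNA, changed order in RS. Hnrnpl (chr7:28808541-28822266, plus strand) was between 361 and 516 CPM in the 15 libraries up to PD, and 24.6, 30.8 and 56.9 CPM in RS. Its fall in RS against PD was 3.64 ± 0.23 on the log2 scale (edgeR adjusted p = 1.45e-09), to a mean of 37.4 CPM against 469 CPM, the largest fall of that step among the genes examined here. No earlier step was called for Hnrnpl. Hnrnpll, known for the splicing of CD45 in lymphocytes (chr17:80029487-80062334, minus strand), stood at 54.1 ± 1.76 CPM in Undiff.Spg, 85.3 ± 1.23 in Diff.Spg, 125 ± 12 in PreL, 182 ± 20.9 in LZ, 317 ± 21.2 in PD and 201 ± 5.70 in RS (SD, n = 3 each). It rose in each of the 4 steps up to PD by 0.54 to 0.80 on the log2 scale, with the largest edgeR adjusted p at 0.000478, and fell in RS against PD by 0.66 ± 0.11 (edgeR adjusted p = 4.54e-05). It stood higher in RS than in Undiff.Spg by 1.89 ± 0.11 (edgeR adjusted p = 4.67e-11), the largest rise over the whole course. Per kilobase the ratio of Hnrnpll to Hnrnpl was 0.0741 in Undiff.Spg, 0.106 in Diff.Spg, 0.141 in PreL, 0.235 in LZ, 0.345 in PD and 3.07 in RS. RS 1, 2 and 3 had 4.06, 3.30 and 1.86, the only libraries with a ratio above 1.

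**Figure D5:**
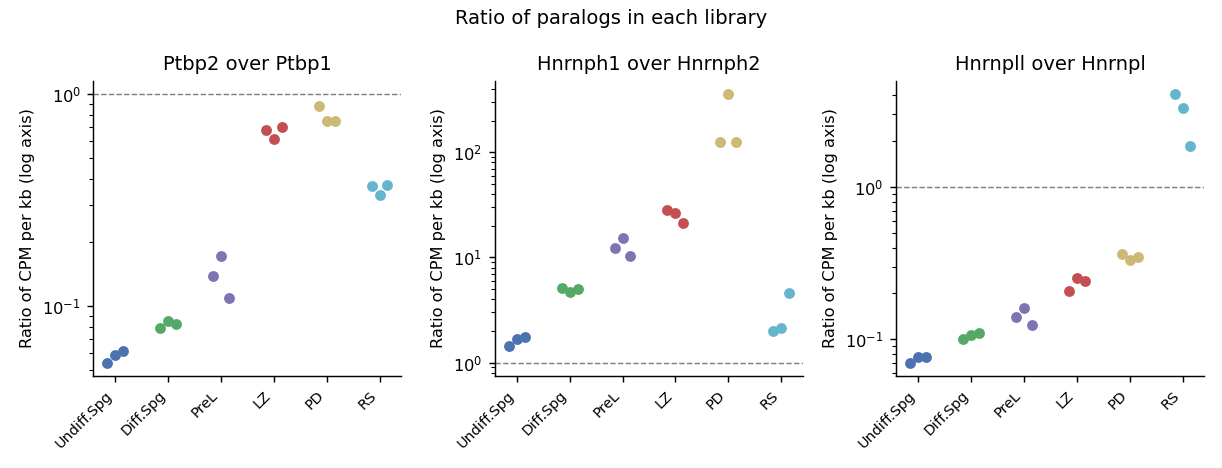
Ratio of the levels of 3 paralog pairs, each in CPM per kilobase of merged exons (log axis), in every library by group in stage order; the dashed line is a ratio of 1. Ptbp2 over Ptbp1 is at least 0.336 in every library from LZ on, Hnrnph1 over Hnrnph2 averages 202 in PD, and Hnrnpll exceeds Hnrnpl in RS alone.

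Several other hnRNP genes were lower in RS than in any earlier library. Hnrnpm, a binder of GU-rich RNA, was at 395, 426 and 372 CPM in PD, above all earlier libraries (154 to 283 CPM), and at 31.1, 42.7 and 58.5 CPM in RS. Its log2 fold change in RS against PD was -3.17 ± 0.17 (edgeR adjusted p = 3.73e-10). Its rise in PD against LZ, 0.61 ± 0.16 (edgeR adjusted p = 0.00206), was lost with scaling by totals (0.22) and without PD 2 (0.37). Its exons overlap March2 on the same strand over 1169 of 7956 bases, and March2 averaged 57.4 CPM in RS and 68.1 CPM in PD. Hnrnpa2b1, one of the core hnRNPs, was at 386 to 806 CPM up to PD and at 84.2, 89.0 and 114 CPM in RS, a log2 fold change of -2.24 ± 0.13 in RS against PD (edgeR adjusted p = 5.12e-10). RS 3 was the highest RS library for Hnrnpl, Hnrnpm, Hnrnpa2b1, Hnrnph1 and Hnrnpul2 and for Srsf1, and it was also the one with 183 CPM of Piwil1. Without it, the log2 fold changes in RS against PD were -4.14 for Hnrnpl, -3.49 for Hnrnpm, -3.84 for Hnrnpul2 and -3.18 for Srsf1, each larger than with it.

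Hnrnpul2, an hnRNP U-like gene, was at 385 to 425 CPM in Undiff.Spg, above every later library, and at 254 to 329 CPM from Diff.Spg to LZ. It stood at 106, 117 and 73.7 CPM in PD and 5.84, 8.59 and 16.0 CPM in RS. Its fall in Diff.Spg against Undiff.Spg was not called with all 18 libraries. It was called with only the 6 libraries compared (-0.48, edgeR adjusted p = 1.17e-06) and without RS 1 or RS 3 (edgeR adjusted p = 0.0453 and 0.0186). Its log2 fold change was -1.61 ± 0.25 in PD against LZ (edgeR adjusted p = 1.42e-05) and -3.27 ± 0.27 in RS against PD (edgeR adjusted p = 2.61e-08), and in RS against Undiff.Spg it fell more than any other of these genes (-5.32 ± 0.30, edgeR adjusted p = 2.54e-11). Its paralog Hnrnpul1 behaved otherwise and was the most abundant of these genes in PD and RS, also per kilobase, at 1131 ± 39.1 CPM in PD and 917 ± 28.9 CPM in RS, against 546 ± 12.2 CPM in Undiff.Spg (SD, n = 3 each). Its step in PreL against Diff.Spg (0.30 ± 0.12, edgeR adjusted p = 0.0445) was not called with the replicate number as a block. The call was also lost without any 1 of the Undiff.Spg or Diff.Spg libraries, and without PreL 1, PreL 3 or RS 2.

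Hnrnpa0, an AU-rich element binder (chr13:58125879-58128556, minus strand), fell, recovered and fell again. Its levels were 419, 483 and 383 CPM in Undiff.Spg, 207, 257 and 269 CPM in Diff.Spg, 136, 126 and 125 CPM in PreL, and 78.5, 98.2 and 99.3 CPM in LZ. PD returned to 326, 345 and 268 CPM, and RS stood at 29.4, 34.0 and 50.7 CPM. No library of these groups overlapped with those of the group next to it. The log2 fold changes were -0.81 ± 0.18 in Diff.Spg against Undiff.Spg (edgeR adjusted p = 0.00133), -0.92 ± 0.18 in PreL against Diff.Spg (edgeR adjusted p = 0.000509), 1.77 ± 0.18 in PD against LZ (edgeR adjusted p = 1.11e-07) and -3.04 ± 0.19 in RS against PD (edgeR adjusted p = 1.34e-09). That in LZ against PreL, -0.49 ± 0.18 (edgeR adjusted p = 0.0318), was lost without PreL 1 or LZ 1 (edgeR adjusted p = 0.0782 and 0.125).

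Hnrnpab, a CArG-box and RNA binding hnRNP, was 1 of the 2 genes called higher in RS against PD. It stood at 520 ± 21.9 CPM in Undiff.Spg, 632 ± 6.25 in Diff.Spg, 488 ± 80.9 in PreL, 342 ± 46.7 in LZ, 123 ± 14.1 in PD and 247 ± 37.7 in RS (SD, n = 3 each), with a log2 fold change of 1.01 ± 0.14 in RS against PD (edgeR adjusted p = 1.3e-05). It fell in PD against LZ by 1.47 ± 0.15 (edgeR adjusted p = 6.63e-08) and in LZ against PreL by 0.51 ± 0.14 (edgeR adjusted p = 0.00686). In PreL against Diff.Spg its -0.37 ± 0.14 (edgeR adjusted p = 0.0426) was not called with the replicate number as a block (edgeR adjusted p = 0.0594), with RLE scaling or without PreL 2 (-0.25, edgeR adjusted p = 0.181). The call was also lost with DESeq2, with no filter on low counts, and without any 1 of the Undiff.Spg or Diff.Spg libraries, PreL 1, PD 1 or RS 2. Exons of Phykpl, which averaged 1.95 CPM in RS and 4.47 CPM in PD, lie opposite 809 of its 2782 bases.

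The AUF1 gene Hnrnpd and its paralog Hnrnpdl, both binders of AU-rich RNA, had their highest means in Diff.Spg. They fell together in LZ against PreL, Hnrnpd by 0.81 ± 0.10 (edgeR adjusted p = 5.18e-06) and Hnrnpdl by 0.60 ± 0.13 (edgeR adjusted p = 0.000806). In PD against LZ, Hnrnpdl fell by a further 2.03 ± 0.13, to 61.8 ± 9.93 CPM in PD against 252 ± 16.4 CPM in LZ (SD, n = 3 each; edgeR adjusted p = 2.96e-10). Hnrnpd had a log2 fold change of -0.19 ± 0.10 there (edgeR adjusted p = 0.0919), which was called lower without LZ 3 or any 1 of the PD or RS libraries (-0.43 to -0.31, edgeR adjusted p 0.00252 to 0.0156) and with scaling by totals (-0.59). It fell by 1.01 ± 0.10 in RS against PD (edgeR adjusted p = 2.71e-07). Hnrnpk, a poly(C) binder, and Hnrnpc, a binder of U tracts, were highest in LZ (Hnrnpk) and PreL (Hnrnpc), and both fell in PD against LZ and in RS against PD. Hnrnpr lay at 59.2 to 122 CPM over the 18 libraries and was called higher in Diff.Spg against Undiff.Spg (0.59 ± 0.10, edgeR adjusted p = 0.000141) and lower in PreL against Diff.Spg (-0.29 ± 0.10, edgeR adjusted p = 0.0283, lost without PreL 2 or any 1 of the Diff.Spg libraries) and RS against PD (-0.74 ± 0.10, edgeR adjusted p = 7.61e-06). Hnrnpu lay at 51.8 to 83.3 CPM.

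Hnrnpa1 and Hnrnpa3 had few counts for genes whose products are abundant in most cells. Hnrnpa1 averaged 12.2 CPM in Undiff.Spg, 11.1 in Diff.Spg, 5.36 in PreL, 2.34 in LZ, 0.341 in PD and 0.606 in RS. Its log2 fold changes were -1.05 ± 0.25 in PreL against Diff.Spg, -1.20 ± 0.28 in LZ against PreL and -2.74 ± 0.42 in PD against LZ (edgeR adjusted p = 0.00251, 0.00167 and 1.4e-05). Hnrnpa3 lay between 4.63 and 9.90 CPM in all libraries. Of their 50-base windows, 28.3% of Hnrnpa1 occur in 19 other genes and 28.2% of Hnrnpa3 in 46, and reads that match several places may be counted elsewhere or not at all, so these levels are uncertain. The same holds in part for Hnrnpk (37.8% of windows shared), Srsf2 (35.2%), Hnrnpab (29%), Hnrnpm (28.8%), Ptbp1 (22.6%) and Srsf3 (18.3%).

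Most SR protein genes fell in PD against LZ and all of them in RS against PD. In PD against LZ 9 of 11 were called lower (40.8% of all genes) and 1 higher (42.1%). All 11 were called lower in RS against PD (28.6% of all genes), 10 of them at least 2-fold (19.7%). Their median log2 fold change was -0.88 and -1.52 in these steps, against 0.00 over all genes. In the first 3 steps it was 0.40, 0.30 and 0.01. Called higher there were 4, 4 and 2 genes (20.4%, 20.4% and 24.3% of all genes). Called lower were 1, 1 and 0 (23%, 24.8% and 23.2% of all).

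Srsf2, known as SC35 and as a marker of nuclear speckles (chr11:116849901-116853094, minus strand), was the most abundant SR gene of LZ, also per kilobase. It stood at 308, 320 and 307 CPM in Undiff.Spg, 413, 404 and 421 CPM in Diff.Spg, 617, 501 and 487 CPM in PreL, and 773, 726 and 768 CPM in LZ. In PD it was 132, 136 and 106 CPM, and in RS 43.8, 44.6 and 53.7 CPM. Each group up to LZ lay wholly above the one before it, and PD lay below all 12 earlier libraries. The log2 fold change in PD against LZ was -2.60 ± 0.13 (edgeR adjusted p = 7.73e-12), the largest fall of the SR genes in that step, and that in RS against PD was -1.40 ± 0.12 (edgeR adjusted p = 5.61e-08). Mfsd11, whose exons with those of Mettl23 lie opposite 748 of its 2958 bases, averaged 234 CPM in PD and 58.1 CPM in LZ, the reverse of Srsf2.

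Srsf1, the founding SR protein (chr11:88047373-88053755, plus strand), stood at 258, 283 and 267 CPM in Undiff.Spg, 365 to 376 CPM in Diff.Spg, 393 to 441 CPM in PreL, 386 to 464 CPM in LZ, 191, 214 and 161 CPM in PD, and 19.8, 23.6 and 41.8 CPM in RS. It was called in the last 2 steps, with log2 fold changes of -1.13 ± 0.20 in PD against LZ (edgeR adjusted p = 5.03e-05) and -2.73 ± 0.21 in RS against PD (edgeR adjusted p = 1.09e-08), the second being the largest fall of the SR genes. Its rise in Diff.Spg against Undiff.Spg was not called with all 18 libraries. Srsf1 was called higher there without RS 1, without RS 3, and without PreL 2 and LZ 2 together (edgeR adjusted p = 0.0387, 0.005 and 0.0351). With only the 6 libraries compared it was also called (0.47, edgeR adjusted p = 1.26e-06). Its close paralog Srsf9 was highest in Diff.Spg (200 to 210 CPM) and lowest in RS (8.55 to 17.3 CPM). Srsf9 fell in 3 steps, with log2 fold changes of -0.56 ± 0.18 in PreL against Diff.Spg (edgeR adjusted p = 0.0185, and 0.0531 without Diff.Spg 2), -1.43 ± 0.18 in PD against LZ (edgeR adjusted p = 1.65e-06) and -1.97 ± 0.19 in RS against PD (edgeR adjusted p = 1.94e-07). A rise of Srsf9 in Diff.Spg against Undiff.Spg was called in the same fits as that of Srsf1 (0.39 to 0.41), and not with all 18 libraries. The ratio of Srsf1 to Srsf9 per kilobase was 0.502 in Undiff.Spg and 0.520 in Diff.Spg, and between 0.607 and 1.18 in every later library.

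Srsf6 had the largest rise of an SR gene in Diff.Spg against Undiff.Spg, at 0.68 ± 0.18 (edgeR adjusted p = 0.0057), and stood at 174 to 191 CPM in Undiff.Spg, 293 to 302 in Diff.Spg, 330 to 415 in PreL, 318 to 379 in LZ, 115 to 125 in PD and 17.4 to 36.2 in RS. Srsf5 was not called in Diff.Spg against Undiff.Spg with all 18 libraries. It was called higher there without PreL 3 (0.37, edgeR adjusted p = 0.0273) or RS 3 (0.36, edgeR adjusted p = 0.0492). With only the 6 libraries compared it was also called (0.38, edgeR adjusted p = 0.000459). Srsf5 rose in the 2 steps through PreL and LZ, by 0.54 ± 0.15 and 0.71 ± 0.15 (edgeR adjusted p = 0.00846 and 0.000887), to 289 ± 38.5 CPM in LZ against 176 ± 34.5 CPM in PreL (SD, n = 3 each). It was then lower in PD (145 ± 6.01 CPM) and again in RS (68.6 ± 9.91 CPM), both called. The ratio per kilobase of Srsf3, the smallest SR protein, to its paralog Srsf7 was 0.383 to 0.433 in Undiff.Spg and 0.330 to 0.340 in Diff.Spg. It was 0.332 to 0.397 from PreL to PD, and 0.130 to 0.180 in RS. Srsf3 fell there by 2.26 ± 0.16 (edgeR adjusted p = 3.8e-09) and Srsf7 by 0.92 ± 0.12 (edgeR adjusted p = 6.04e-06).

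Srsf10, which represses splicing when it is dephosphorylated, and Srsf12, its lesser known relative, differed in both level and course. Srsf10 was highest in PreL and LZ (142 to 170 CPM) and fell by 0.83 ± 0.10 in PD against LZ (edgeR adjusted p = 8.02e-07) and by 1.46 ± 0.10 in RS against PD (edgeR adjusted p = 4.44e-09). Srsf12 was low in all groups. It stood at 4.30, 5.01 and 2.34 CPM in PD, against 0.460, 0.352 and 0.0734 CPM in LZ, and was the only SR gene to rise in that step (3.69 ± 0.42, edgeR adjusted p = 3.52e-07, and 3.05 without LZ 3). It had fallen in Diff.Spg against Undiff.Spg by 1.93 ± 0.36 (edgeR adjusted p = 0.000335). Srsf4 and Srsf11 fell in RS against PD by 1.40 ± 0.14 and 1.64 ± 0.17 (edgeR adjusted p = 2.15e-07 and 2.9e-07). Srsf4 shares 47.3% of its 50-base windows with 1 other gene, and over 1532 of its 3561 exon bases it lies opposite Gm12992, which averaged at most 3.65 CPM in any group.

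The kinases that phosphorylate SR proteins, with the import receptor Tnpo3, form a list of 10 genes, 9 of them tested. Called higher and lower were 3 and 2 in Diff.Spg against Undiff.Spg (20.4% and 23% of all genes), 4 and 1 in PreL against Diff.Spg (20.4% and 24.8%), 2 and 0 in LZ against PreL (24.3% and 23.2%), 2 and 6 in PD against LZ (42.1% and 40.8%), and 1 and 4 in RS against PD (30.3% and 28.6%). Srpk2 had the widest swing. It averaged 9.80 ± 5.22 CPM in PreL against 106 ± 4.92 CPM in Diff.Spg (log2 fold change -3.43 ± 0.32, edgeR adjusted p = 3.08e-07), and 235 ± 15 CPM in PD against 17.8 ± 6.88 CPM in LZ (3.73 ± 0.32, edgeR adjusted p = 9.7e-09). Its rise in LZ against PreL, 0.85 ± 0.30 (edgeR adjusted p = 0.0262), came from groups whose libraries overlapped. Clk4 was called higher in Diff.Spg against Undiff.Spg (26.7 against 17.4 CPM) and in PreL against Diff.Spg (62.2 against 26.7 CPM). Dyrk1a was lower in Diff.Spg against Undiff.Spg (89.2 against 153 CPM) and in PD against LZ (33.1 against 120 CPM). In RS against PD, Clk3 rose to 142 ± 5.45 CPM against 82.3 ± 4.88 CPM, and Tnpo3, which carries SR proteins into the nucleus, fell to 30.3 ± 9.08 CPM against 155 ± 13.2 CPM (SD, n = 3 each; log2 fold change -2.35 ± 0.17, edgeR adjusted p = 4.48e-09).

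Of 60 other RNA-binding splicing regulators, 59 were tested. Called higher and lower were 18 and 9 in Diff.Spg against Undiff.Spg (20.4% and 23% of all genes), 19 and 13 in PreL against Diff.Spg (20.4% and 24.8%), 18 and 14 in LZ against PreL (24.3% and 23.2%), 14 and 33 in PD against LZ (42.1% and 40.8%), and 12 and 26 in RS against PD (30.3% and 28.6%). Their median log2 fold change in the last 2 steps was -0.48 and -0.45. The genes named next had the largest called rise or fall of the list in a step among those with at least 10 CPM in the higher group. Mbnl2, a regulator of tissue-specific exons, fell to 4.77 CPM in Diff.Spg against 63.5 CPM in Undiff.Spg, where Elavl3, a neuronal Hu protein gene, rose to 19.0 CPM against 1.64 CPM. The X-linked gene Rbmx, itself also called hnRNP G, rose to 38.9 CPM in PreL against 10.9 CPM in Diff.Spg, and Pcbp4 fell to 8.96 CPM against 25.2 CPM. In LZ against PreL, Celf6 rose to 13.7 CPM against 1.20 CPM and Khdrbs3 fell to 14.1 CPM against 53.0 CPM. Khdrbs3, whose product T-STAR is known from testis, then rose to 229 ± 16.6 CPM in PD (log2 fold change 4.02 ± 0.16 against LZ, edgeR adjusted p = 4.8e-13). The X-linked Mbnl3 fell to 0.0956 CPM in PD against 86.7 CPM in LZ (-9.72 ± 0.33, edgeR adjusted p = 1.46e-13). In RS against PD another X-linked gene, Rbm10, rose to 17.2 CPM against 0.719 CPM, and the poly(C) binder Pcbp1 fell to 32.5 CPM against 521 CPM. Each of the changes named here has groups that do not overlap. The genes were chosen by the size of these same changes, so this adds no support to them.

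Of 45 core spliceosome genes, all were tested. Higher and lower calls were 10 and 5 in Diff.Spg against Undiff.Spg (20.4% and 23% of all genes), 6 and 5 in PreL against Diff.Spg (20.4% and 24.8%), 5 and 16 in LZ against PreL (24.3% and 23.2%), 11 and 27 in PD against LZ (42.1% and 40.8%), and 7 and 25 in RS against PD (30.3% and 28.6%), with medians of 0.17, -0.03, -0.20, -0.47 and -0.52. Of the factors that read the 3′ splice site, U2af1 and U2af2 were lower in RS than in PD and Sf1 was higher. U2af1 stood at 10.2, 11.0 and 6.45 CPM in PD and at 1.67, 1.65 and 2.33 CPM in RS. In RS against PD the other 2 were the largest called fall and rise of the list. U2af2, which binds the polypyrimidine tract, fell to 6.00 ± 3.83 CPM against 77.8 ± 13.5 CPM (log2 fold change -3.68 ± 0.31, edgeR adjusted p = 3.45e-08), and Sf1, which binds the branch point, rose to 926 ± 90.2 CPM against 462.5 ± 21.9 CPM (SD, n = 3 each; 1.0 ± 0.12, edgeR adjusted p = 1.41e-06). Dhx38, a helicase of the catalytic steps, was lower in PreL against Diff.Spg (63.1 against 141 CPM) and higher in PD against LZ (187 against 40.8 CPM), where Prpf19, a ubiquitin ligase of the spliceosome, fell to 57.1 CPM against 314 CPM. Dhx8 and Snrpd1 led the fall and the rise of Diff.Spg against Undiff.Spg (81.9 against 172 CPM and 42.1 against 26 CPM). U2af1 rose in PreL against Diff.Spg (29.8 against 18.3 CPM), and in LZ against PreL Dhx8 rose (145 against 75.9 CPM) and Aqr fell (83.6 against 189 CPM).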

How the data were processed

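Reads per gene were measured in 18 libraries (6 groups of 3, grouped by their labels). The deposited table holds raw counts per gene, made by the authors; the submitters' processing notes name cutadapt, STAR 2.4.2a, HTSeq, DESeq2 and GRCm38, without roles. Strand setting: not given in the sources used here, nor is the annotation release. Gene positions and merged exon lengths came from GENCODE M21 (46091 of 46603 genes matched by ID), promoters from RefSeq. Library totals were 11777947 to 16607462 counts, and no pair of libraries in a group was as alike as sampling noise alone (chi-square per gene 2.49 to 52.7).

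One edgeR 4.0.16 quasi-likelihood model (R 4.3.3) of the 6 groups was fitted to the 18547 genes that passed filterByExpr, with TMM scaling and Benjamini-Hochberg adjustment over all of them. It was tested on simulated counts with few genes changed, in a single group. Most genes differ among the groups here, so that test does not check the scaling. A call is an adjusted p under 0.05. SE is the log2 fold change divided by the square root of F, without sign, and SD is over 3 libraries. Libraries with the same number deviated together in PreL against Diff.Spg (correlations 0.228, 0.445 and 0.121) and in LZ against PreL (0.455, 0.683 and 0.254), a pairing seen in the data and not stated in the labels. Shared windows are 50-base stretches of a gene's longest transcript that occur in transcripts of other genes.

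The genes and lists were chosen with earlier results of these data known. Named are every Ptbp and Rbfox gene, X-linked genes, 6 paralog pairs, and per step the 4 largest called rises and falls with at least 10 CPM in the higher group; for the partner lists it is the largest of each. Other genes were named after their values were seen. Alternatives were other scalings, filters and fits (DESeq2 1.42.0 among them), the replicate number as a block, and libraries left out.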

Additional observations from a re-analysis of the deposited data

How the results depend on the processing

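In Diff.Spg against Undiff.Spg a fit to only the 6 libraries compared called 22 genes higher, against 14 with all 18, and over all genes 5438 of 14837 higher, against 3788 of 18547. With a condition of at least 2-fold the counts higher and lower were 1 and 3 in Diff.Spg against Undiff.Spg, 1 and 3 in PreL against Diff.Spg, 1 and 2 in LZ against PreL, and 3 and 13 in PD against LZ, and 2 genes were higher in RS against Undiff.Spg. With scaling by total library size 2 genes were called higher in RS against Undiff.Spg, and Hnrnpf (-0.31) and Hnrnph3 (-0.54) turned to falls in that comparison. Leaving out each library in turn gave 6 to 10 genes lower in PreL against Diff.Spg, 3 to 6 higher in RS against Undiff.Spg, and a log2 fold change of -0.10 to 0.27 for Hnrnph3 in RS against Undiff.Spg; the cause was not tested. RS against PD kept 2 higher and 27 to 28 lower in these fits. With the replicate number as a block, 8 genes were called higher and 9 lower in PreL against Diff.Spg, and no call changed in LZ against PreL. Same-numbered libraries correlated at 0.0199, 0.251 and 0.149 in Diff.Spg against Undiff.Spg, so a pairing there is uncertain too. In PD against LZ, RS against PD and RS against Undiff.Spg the correlations do not pair them. The block gave 13 higher in Diff.Spg against Undiff.Spg, 20 lower in PD against LZ, 26 lower in RS against PD and 5 higher in RS against Undiff.Spg. Low counts limit Rbfox1, Rbfox3, Hnrnpa1 and Srsf12.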
